A study of Mus musculus with 28 samples.

Results

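The comparison described here sets 6 hippocampal arrays from vehicle-injected mice in standard cages against 4 arrays from naive mice in standard cages, chosen from 28 arrays by the words vehicle and naive in the sample titles. The vehicle arrays are replicates 3, 4 and 5 of each genotype, and the naive arrays are replicates 1 and 2 of each genotype. The genotypes are wild type and cbp+/-, female littermates on a C57/DBA F1 hybrid background at 3 months of age, and in cbp+/- mice 1 copy of the gene encoding CBP, a coactivator and histone acetyltransferase, is disrupted. The vehicle was DMSO/saline given into the peritoneum. The labels do not describe any handling of the naive mice. Each array held RNA pooled from several mice, given as 3 to 4 in the design text and as 4 in the extraction protocol. The other 18 arrays come from mice given trichostatin A (TSA, a histone deacetylase inhibitor, 2.4 mg/kg), placed in a box with objects for 1 h after vehicle, or given both; they enter only the shared estimate of the spread. The delay of 75 min from injection to tissue is stated for TSA and not separately for vehicle. The comparison shows how the pair of control types that make up the study's standard-housing controls differ.

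An injection is a brief stressor for a mouse. Stress activates the hypothalamus, pituitary and adrenal cortex, and the corticosterone released binds the glucocorticoid receptor, which is abundant in hippocampal neurons and switches on genes such as Fkbp5, Sgk1 and Tsc22d3. Handling and new surroundings also induce immediate early genes such as Fos, Egr1 and Arc through neuronal activity. The circadian clock is a loop in which BMAL1 (gene Arntl) and CLOCK drive Per and Cry genes, whose products repress them, and Per1 is also a direct target of the glucocorticoid receptor.

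The naive arrays carry replicate numbers that no vehicle array carries, and they stood as a group of their own in the values, so injection and array set cannot be told apart in any result below. Vehicle arrays with the same replicate number deviated together across the genotypes. For that reason each adjusted p is given from the fit of all 28 arrays with no block and, for the genes described in full, from a fit of the 10 cage control arrays with the replicate number as a random block. These fits differ in their arrays as well as in the block. All adjusted p-values are from limma with Benjamini-Hochberg adjustment over 19938 genes, differences are vehicle minus naive in log2 units averaged over the genotypes unless stated, and ± is the standard error of the fit. On tissue homogenate, fewer cells of a type and less RNA per cell cannot be told apart.

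Crebbp, the gene for CBP, did not differ between the control types. In wild type its naive arrays read 9.20 and 9.27 and its vehicle arrays 9.37, 9.55 and 9.06. In cbp+/- mice the naive arrays read 9.35 and 9.26 and the vehicle arrays 9.46, 9.77 and 9.16. The groups overlapped, and the difference was 0.12 ± 0.20 (adjusted p = 0.87). Which part of the gene the probes cover is unknown here, so these values do not check the genotype labels. The paralogous coactivator gene Ep300 differed by 0.10 ± 0.23 (adjusted p = 0.912).

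Across the 10 arrays the first component of variation followed replicate numbers, and the second ran from vehicle replicates 5 to the naive arrays. Component 1, with 37.6% of the variance, placed vehicle replicates 3 at 26.9 and 26 and vehicle replicates 5 at -11.7 and -18.7, with the naive arrays between -14.1 and -8.8. Component 2, with 22.8%, placed the naive arrays at 9.1 to 14.2 and the vehicle arrays at -23.5 to 3.7. On it vehicle replicates 4 lay nearest the naive arrays, at 3.1 and 3.7, and vehicle replicates 5 lay farthest, at -21.5 and -23.5. Among the vehicle arrays the genotypes lay close together within each replicate number. The naive arrays lay nearest the other array of their genotype. On component 1 wild type stood at -14.1 and -13 and cbp+/- at -9.4 and -8.8. These scores are a description and were not tested.

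**Figure D1:**
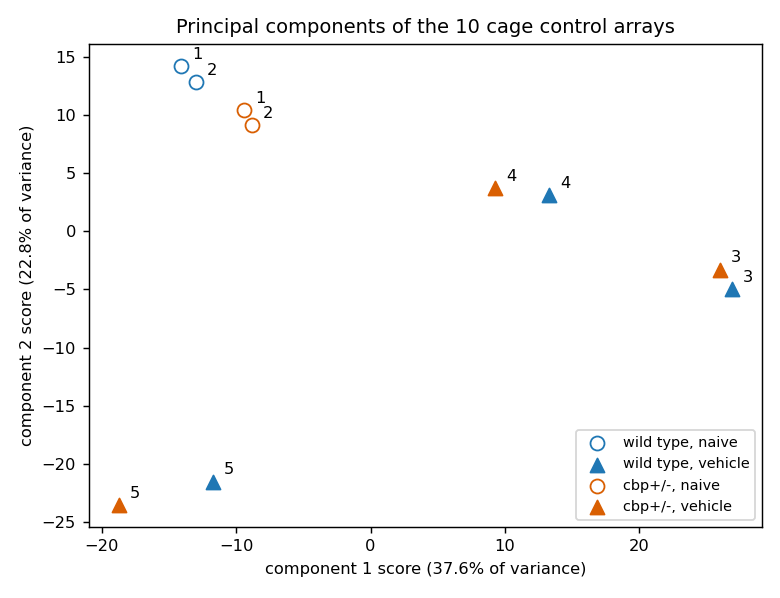
Scores of the 10 cage control arrays on the first and second principal components, each axis labelled with its share of the variance; open circles are naive arrays, triangles are vehicle arrays, colours are genotypes and numbers are replicate numbers. The 4 naive arrays sit at 9.1 to 14.2 on component 2, above all vehicle arrays, and vehicle replicates 3, 4 and 5 sit in separate places.

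In the fit with no block 480 of 19938 genes passed the threshold of 0.05, which is 2.41% of those tested. Of these 216 rose (1.08%) and 264 fell (1.32%) in vehicle arrays. The block on replicate number, fitted on the 10 cage control arrays, left 30 genes (0.15%), of which 16 rose (0.0802%), 14 fell (0.0702%) and 28 were also among the 480. The same 10 arrays with no block called 690 of 19938 genes. The median absolute difference of the 480 genes was 0.444 and the largest was 1.72, against a median of 0.101 over all genes. At an unadjusted p under 0.05 there were 2866 genes with no block (14.4%) and 2583 with it (13%). In 447 of the 480 the vehicle and naive arrays did not overlap. Over all genes the 6 vehicle arrays all lay above the naive arrays in 812 genes (4.07%) and all below in 958 (4.8%). Treating the array sets as a random block over the 28 arrays left 2 genes, Rmrp and Snord104, each at adjusted p = 0.0217. No label names the sets, which were assigned by group and replicate number with the values known. The naive arrays form a set of their own that holds no vehicle array, so this fit cannot separate injection from array set either.

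Structural RNAs of RNA processing were among the genes with the largest rises. Rmrp, the RNA of the RNase MRP particle that cuts ribosomal RNA precursors, read 8.76, 8.63, 8.97 and 8.82 in the naive arrays and from 9.99 to 10.87, with a median of 10.17, in the vehicle arrays. All vehicle arrays were higher, by 1.56 ± 0.30 or 2.95-fold (adjusted p = 0.00627, and 0.0287 with the block). Rpph1, the RNA of RNase P, which trims transfer RNA precursors, read 10.53, 10.58, 10.89 and 10.57 in naive arrays and 11.41 to 12.01 in vehicle arrays, a rise of 1.11 ± 0.15 (adjusted p = 0.000557, and 0.0439 with the block). The RNase P RNA-like genes Rprl1 and Rprl2 rose by 0.98 ± 0.12 and 0.75 ± 0.11 (adjusted p = 0.000243 and 0.00057, and 0.0445 and 0.0469 with the block). Since these copies resemble Rpph1, their probes may share signal, and the 3 genes are not independent readings.

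Small nucleolar RNAs guide chemical changes on ribosomal and spliceosomal RNA. Of 51 measured, 3 rose and 0 fell (5.88% called, against 2.41% of all genes), with a median difference of 0.13 against 0.01 over all genes. The list's median was -0.01 in vehicle replicates 3, 0.04 in replicates 4 and 0.39 in replicates 5, and without replicates 5 it was 0. Snord104 read 6.45, 6.53, 6.32 and 6.28 in naive arrays and from 7.31 to 8.21 in vehicle arrays, so no arrays overlapped. Its rise was 1.33 ± 0.25 (adjusted p = 0.0052, and 0.0439 with the block). Snora16a rose by 0.80 ± 0.17, also with the block (adjusted p = 0.044), and Snord55 rose by 0.83 ± 0.20 with no block (adjusted p = 0.0271) but not with it (0.0897).

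**Figure D2:**
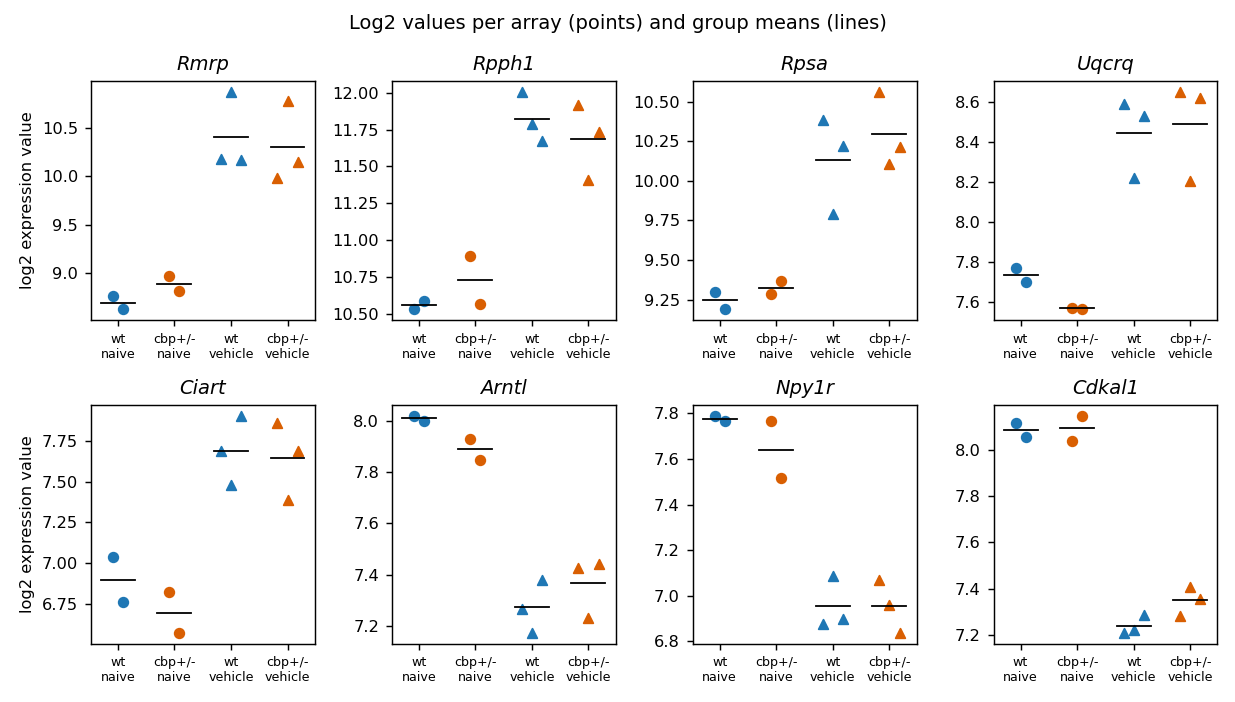
Deposited log2 values of 8 genes in each cage control array; circles are naive arrays, triangles are vehicle arrays placed from left to right by replicate number, blue is wild type, orange is cbp+/- and lines are group means. Each y axis has its own range and does not start at 0. Rmrp, Rpph1, Rpsa, Uqcrq and Ciart were higher and Arntl, Npy1r and Cdkal1 lower in all 6 vehicle arrays than in the 4 naive arrays.

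Genes for cytosolic ribosomal proteins and for the mitochondrial respiratory chain rose more often than they fell. Among 61 ribosomal protein genes 8 rose and 0 fell (13.1% called, against 2.41% of all genes), with a median difference of 0.18. The list's median was 0.11, 0.22 and 0.34 in vehicle replicates 3, 4 and 5, with 33, 45 and 53 of the 61 genes positive. Without replicates 5 of both genotypes 4 rose, and the median was 0.13. Rpsa, which encodes a small-subunit protein also known as the laminin receptor, read 9.30, 9.19, 9.29 and 9.37 in naive arrays and 9.79 to 10.56 in vehicle arrays. Its rise of 0.93 ± 0.17 passed in both fits (adjusted p = 0.00389, and 0.044 with the block), and it was the only ribosomal protein gene to pass with the block. Rpl24, a large-subunit protein gene, rose by 0.79 ± 0.13 with no block (adjusted p = 0.00264) and missed the threshold with it (0.0538). Many ribosomal protein genes have near-identical processed copies, so their signals may be mixed.

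Among 77 oxidative phosphorylation genes 10 rose and 0 fell (13% called, against 2.41% of all genes), with a median of 0.25. Without replicates 5 of both genotypes 6 rose, and the median was 0.12. With the block 2 passed, Uqcr11 and Uqcrq, both small subunits of complex III. Uqcrq read 7.77, 7.70, 7.57 and 7.57 in naive arrays and from 8.21 to 8.65 in vehicle arrays, a rise of 0.82 ± 0.14 (adjusted p = 0.00264, and 0.0439 with the block). Uqcr11 read 6.85, 7.04, 6.94 and 6.97 in naive arrays and 7.53 to 7.64 in vehicle arrays, a rise of 0.64 ± 0.09 (adjusted p = 0.000656, and 0.0439 with the block). The vehicle arrays of Uqcr11 spanned a narrower range than their distance from the naive arrays. The list's median difference was 0.14 for vehicle replicates 3, 0.04 for replicates 4 and 0.49 for replicates 5, so the size of the list's shift differed between replicate numbers. Sdhb, the iron-sulfur subunit of complex II, rose by 0.81 ± 0.13 with no block (adjusted p = 0.00168, and 0.0662 with it).

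Histone genes, whose transcripts mostly lack a poly(A) tail, showed 4 rises and 0 falls among 44 measured (9.09% called, against 2.41% of all genes), with a median of 0.12. The list's median was 0.07, 0.06 and 0.30 in vehicle replicates 3, 4 and 5. All 4 encode histone H4, namely H4c4, H4c6, H4f16 and H4c8, and their near-identical coding sequences may share probe signal. H4c4 read 7.84, 7.68, 7.77 and 7.74 in naive arrays and had a vehicle median of 9.43. Both vehicle replicates 4 stood lower, at 8.39 and 8.42, yet above every naive array. The difference was 1.39 ± 0.36 (adjusted p = 0.0432, and 0.0686 with the block), and no histone gene passed with the block.

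Genes known to be induced by glucocorticoids were mostly higher in vehicle arrays, but their calls were fragile. Of 28 measured, 27 had a positive difference, 5 rose and 0 fell (17.9% called, against 2.41% of all genes), and the median was 0.38 against 0.01 over all genes. The 5 were Ddit4, an inhibitor of mTOR signalling, Klf15, a metabolic transcription factor, Tsc22d3, which encodes the anti-inflammatory protein GILZ, Hif3a, a hypoxia-inducible factor subunit, and Nfkbia, the inhibitor of NF-kappaB. None of the 28 passed with the block. None passed either without replicates 1, without replicates 2, without replicates 3, or without the 3 arrays in which choroid plexus markers were raised, and the median then ran from 0.33 to 0.41. The list held 7 calls without replicates 4, 2 without replicates 5 and 8 on the 10 cage control arrays with no block. Losses were not particular to it. Without replicates 1 the ribosomal protein, oxidative phosphorylation, histone, small nucleolar RNA and clock lists also held 0 calls. Without replicates 2 only oxidative phosphorylation among these held any, with 2. The list was drawn up with earlier results of these data known.

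Ddit4 read 6.62, 6.40, 6.80 and 6.70 in naive arrays and from 6.996 to 7.644, with a median of 7.206, in vehicle arrays. The arrays did not overlap, and vehicle replicates 3 were highest. The difference was 0.66 ± 0.16 (adjusted p = 0.0235, and 0.11 with the block). Tsc22d3 read 5.74, 5.63, 5.98 and 5.68 in naive arrays and from 5.97 to 6.78 in vehicle arrays. Its lowest vehicle array, cbp+/- replicate 4, lay just under the highest naive array, and the difference was 0.76 ± 0.19 (adjusted p = 0.032, and 0.128 with the block). Nfkbia differed by 0.59 ± 0.15 (0.0386, and 0.11 with the block), Hif3a by 0.45 ± 0.11 (0.0376, and 0.11) and Klf15 by 0.41 ± 0.10 (0.0255, and 0.288).

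Several textbook targets of the receptor missed the threshold. Fkbp5, a chaperone partner that dampens the receptor, read 7.77, 7.72, 7.69 and 7.73 in naive arrays and 7.92 to 8.23 in vehicle arrays. These did not overlap, and the difference was 0.35 ± 0.10 (adjusted p = 0.0548, and 0.165 with the block). The kinase gene Sgk1 differed by 0.49 ± 0.15 (0.0885), the transcription factor gene Zbtb16 by 0.43 ± 0.14 (0.113) and Per1 by 0.49 ± 0.30 (0.512). The metallothionein gene Mt2 differed by 0.98 ± 0.49 (0.367): vehicle replicates 3 and 5 stood 1.19 and 1.89 above the naive mean, and replicates 4 stood at -0.13. The list's median difference was likewise lowest in replicates 4, at 0.14, against 0.50 in replicates 3 and 0.34 in replicates 5. The receptor genes themselves, Nr3c1 and Nr3c2, had differences of -0.26 ± 0.13 and -0.23 ± 0.11 and did not pass (adjusted p = 0.366 and 0.323). None of the 12 measured genes of corticosteroid receptors and the CRH system passed in limma, against 2.41% of all genes. An unadjusted p under 0.05 was seen in 1 of them, against 14.4% of all genes.

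**Figure D3:**
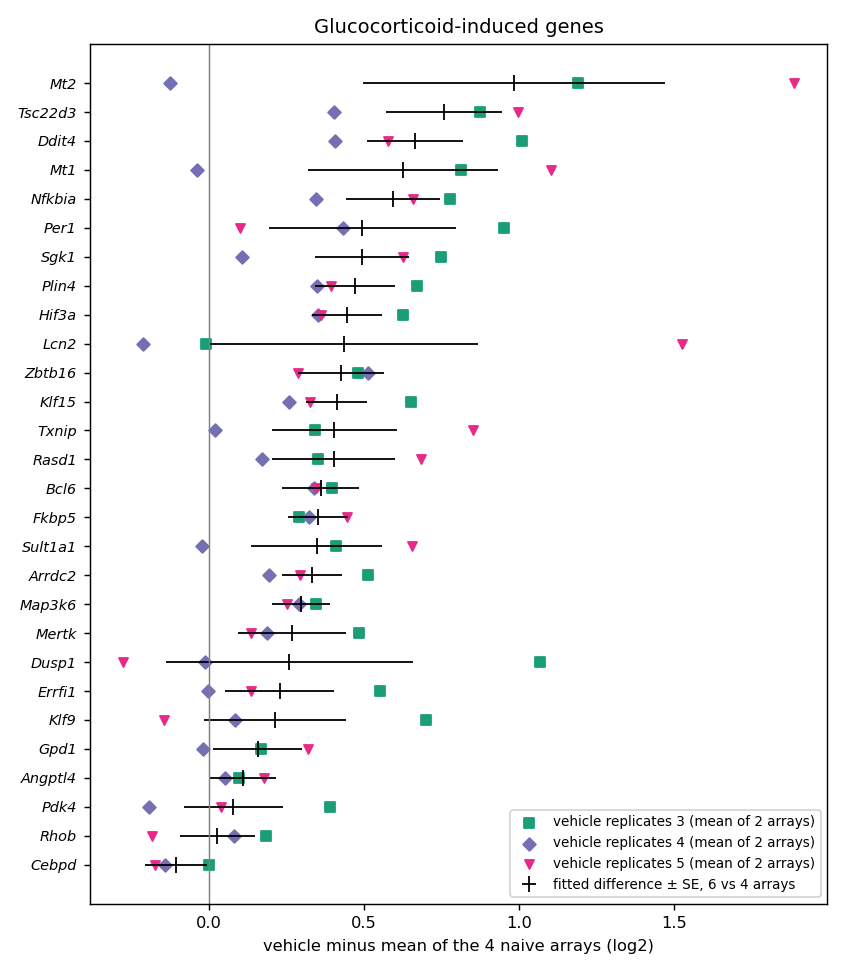
Difference from the mean of the 4 naive arrays, in log2 units, for the 28 measured glucocorticoid-induced genes, sorted by the fitted difference; coloured symbols are vehicle replicates 3, 4 and 5 (each the mean of both genotypes), and black ticks with bars are the fitted difference and its standard error. In 27 of 28 genes the fitted difference is above 0, and Mt2 has the widest spread between replicate numbers among the genes with the 5 largest differences.

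The receptor binds a palindromic element, searched here as GNACA and TGTNC separated by any 3 bases, on both strands, in the 250 bases before each RefSeq start (GRCm38.p6). It was present in 0.36% of 19177 promoters and in 4 of the 33 promoters (12.1%) that belong to the 23 glucocorticoid-induced genes with an entry, those of Map3k6, Mt1, Sgk1 and Txnip. These stretches are shown because they are the matches among the listed genes; they were chosen after the search, and capitals mark the match. Distances are from the match to the start, which is 181 bases for Map3k6, 94 for Mt1, 188 for Sgk1 and 172 for Txnip.
Map3k6 (chr4:133240617-133240669, plus strand): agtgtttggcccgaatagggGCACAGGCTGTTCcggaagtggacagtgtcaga
Mt1 (chr8:94178975-94179027, plus strand): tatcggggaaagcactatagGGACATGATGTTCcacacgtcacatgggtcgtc
Sgk1 (chr10:21993682-21993734, plus strand): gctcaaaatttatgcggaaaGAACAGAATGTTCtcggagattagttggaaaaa
Txnip (chr3:96557765-96557817, plus strand): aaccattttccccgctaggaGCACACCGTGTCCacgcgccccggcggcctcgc
None of these 4 genes passed the threshold, with differences of 0.30 ± 0.09 for Map3k6, 0.63 ± 0.31 for Mt1, 0.49 ± 0.15 for Sgk1 and 0.40 ± 0.20 for Txnip. A match is a description of the sequence and not evidence of binding.

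Among 18 measured clock genes Ciart rose and Arntl fell, in both fits (11.1% called with no block, against 2.41% of all genes). Without replicates 3 of both genotypes 0 clock genes rose and 1 fell. Ciart, also called Chrono, encodes a repressor of the BMAL1 and CLOCK pair. It read 7.04, 6.76, 6.82 and 6.57 in naive arrays and from 7.39 to 7.91, with a median of 7.69, in vehicle arrays. No arrays overlapped, and the rise was 0.87 ± 0.18 (adjusted p = 0.0126, and 0.0445 with the block). Arntl read 8.021, 7.999, 7.931 and 7.849 in naive arrays and from 7.17 to 7.44 in vehicle arrays. All vehicle arrays were lower, by -0.63 ± 0.11 (adjusted p = 0.00264, and 0.044 with the block). Other members of the loop did not pass: Per2 differed by 0.65 ± 0.23 (0.148), Per3 by 0.30 ± 0.14 (0.339), and the output genes Dbp and Nr1d1 by 0.09 ± 0.18 and -0.06 ± 0.29. Time of day at dissection was not stated in the labels. The list's median was 0.10.

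The 250 bases before the Ciart start are shown because it is the clock gene that rose and holds several E-boxes, the element bound by BMAL1 and CLOCK; it was chosen after its values were seen. The E-box was searched as CACGTG, which reads the same on both strands, and 6.99% of the 19177 promoters hold at least 1. Ciart holds 3, at 116, 58 and 44 bases before the start, marked in capitals.
Ciart (GRCm38.p6, chr3:95882229-95882478, minus strand): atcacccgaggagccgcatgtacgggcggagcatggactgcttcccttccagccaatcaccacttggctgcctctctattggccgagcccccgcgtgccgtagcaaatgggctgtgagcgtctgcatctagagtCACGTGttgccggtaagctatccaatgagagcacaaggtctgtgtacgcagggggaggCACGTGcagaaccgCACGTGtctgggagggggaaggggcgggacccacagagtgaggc
Of the 23 promoters of the 15 clock genes with an entry, 6 held the E-box (26.1%), among them those of Per1 and Tef, which did not pass the threshold. The E-box was also held by 6 of the 33 promoters of the glucocorticoid-induced list (18.2%).

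None of 23 immediate early transcription factor genes passed in limma, against 2.41% of all genes. An unadjusted p under 0.05 was seen in 4 of them, against 14.4% of all genes. In 4 of the 23 all vehicle arrays lay above the naive arrays, which held for 4.07% of all genes. Their median was 0.11. Egr1 read 6.61, 7.07, 6.97 and 7.17 in naive arrays and 7.20 to 8.35 in vehicle arrays, and both vehicle replicates 3 stood highest, at 8.35 and 8.34. The difference was 0.76 ± 0.25 (adjusted p = 0.119). Fos differed by 0.42 ± 0.16 (0.21) and Junb by 0.41 ± 0.12 (0.0616). Of 35 activity-induced effector genes 1 rose (2.86% called), Arc, which encodes a synaptic protein that controls AMPA receptor traffic, and the median was 0.08. Arc read 7.87, 7.86, 8.03 and 7.77 in naive arrays and 8.35 to 9.43 in vehicle arrays, with replicates 3 at 9.26 and 9.43. Its difference was 0.88 ± 0.23 (0.0411, and 0.128 with the block). By replicate number Arc stood 1.46, 0.58 and 0.61 above the naive mean in replicates 3, 4 and 5. Its call was lost without the wild-type or cbp+/- vehicle replicate 3, among other arrays, with adjusted p from 0.028 to 0.177 as each array was left out.

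Npy1r and Gpr52, both receptor genes, were among the 12 largest falls. Npy1r, the Y1 receptor for neuropeptide Y, read 7.79, 7.76, 7.77 and 7.52 in naive arrays and 6.84 to 7.09 in vehicle arrays. It fell by 0.76 ± 0.10 on the log2 scale (adjusted p = 0.000263, and 0.044 with the block), with no overlap. Gpr52, an orphan receptor coupled to cyclic AMP, read 7.58, 7.63, 7.54 and 7.19 in naive arrays and 6.42 to 6.82 in vehicle arrays, with a difference of -0.85 ± 0.12 (0.00057, and 0.0439 with the block). Of 28 glutamate and GABA-A receptor subunit genes 2 fell and 0 rose, Gria3 by 0.33 ± 0.07 and Grik2 by 0.37 ± 0.08. That is 7.14% called, against 2.41% of all genes, with a list median of -0.03. Neither passed with the block (adjusted p = 0.14 and 0.16).

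Cdkal1, which encodes an enzyme that modifies transfer RNA, had the smallest p of the 19938 genes in the fit with no block. It read 8.11, 8.05, 8.04 and 8.15 in naive arrays and 7.21 to 7.41 in vehicle arrays, a difference of -0.79 ± 0.09 (adjusted p = 0.000208, and 0.0287 with the block). Within each group its arrays differed by far less than the groups did. Spg20, the gene for spartin, differed by -0.85 ± 0.13 (0.00125, and 0.0445 with the block) and Abcd2, a peroxisomal fatty acid transporter gene, by -0.73 ± 0.10 (0.000602, and 0.0439 with the block). The neural progenitor and glial transcription factor gene Sox2 (-0.81 ± 0.21), the peptide transporter gene Slc15a2 (-0.74 ± 0.13), the nuclear receptor gene Rorb (-0.74 ± 0.13) and the membrane protease gene Mmp14 (-0.72 ± 0.14) fell with no block. With it their adjusted p ran from 0.0662 to 0.0752.

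Among the larger rises outside these lists were Tns1, the gene for the focal adhesion protein tensin 1 (1.02 ± 0.19, adjusted p = 0.00483), and Ptgds, the prostaglandin D synthase gene (0.92 ± 0.23, 0.0305). With the block they missed the threshold (0.0662 and 0.133). Tspan12, a tetraspanin gene, fell by 0.74 ± 0.19 with no block (0.0378) and missed it with the block (0.11).

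Further genes that passed in both fits were picked after their values were seen. Insig2, which holds back sterol synthesis, differed by -0.59 ± 0.10 (adjusted p = 0.00373, and 0.0445 with the block), and the chemokine receptor gene Cxcr4 by -0.58 ± 0.11 (0.00627, and 0.0439). Lgals1, the gene for galectin-1, rose by 0.69 ± 0.13 (0.0047, and 0.044). Cbx3, a heterochromatin protein gene, and B3galt2, a galactosyltransferase gene, were the pair that passed only with the block, at -0.73 ± 0.20 and -0.60 ± 0.16 (adjusted p = 0.0577 and 0.051 with no block, and 0.044 and 0.0439 with it).

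In the other injected groups Rmrp and Cdkal1 stood near the vehicle arrays. Rmrp averaged 10.34 ± 0.48 after TSA in the cage, 10.26 ± 0.50 after novelty and 10.34 ± 0.57 after both (SD, 6 arrays each), against 8.79 in naive arrays. Cdkal1 averaged 7.26 ± 0.21, 7.43 ± 0.07 and 7.27 ± 0.14 in the same order, against 8.09 in naive arrays. Arc, Fos, Egr1 and Junb averaged above the vehicle arrays in the novelty groups. After TSA in the cage Egr1 and Junb stood near the vehicle arrays. Egr1 averaged 7.71 in vehicle arrays, 7.71 after TSA in the cage, and 8.59 and 8.56 in the novelty groups. Junb averaged 6.17, 6.24, 6.64 and 6.63 in the same order. Arc stood at 8.53 ± 0.36 after TSA in the cage and at 9.93 ± 0.37 and 9.73 ± 0.24 in the novelty groups, and Fos stood at 5.34 after TSA in the cage and at 6.94 and 6.71 in the novelty groups, against 5.63 in vehicle arrays. These groups were all injected and none lies in the set of the naive arrays, so they do not separate injection from array set.

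Of 300 measured microRNA genes 4 fell and 1 rose, a share of 1.67% against 2.41% of all genes. The mature sequences of these 5 are shown to identify them, since Mirlet7c-1 and Mir99a had the largest falls of the named genes; the arrays read transcripts of the hairpin locus and not the mature microRNA. Capitals mark the seed, bases 2 to 8, which pairs with targets, and the 5′ arm from RefSeq (GRCm38.p6) is given for each. No 2 of these seeds are identical.
let-7c-5p of Mirlet7c-1: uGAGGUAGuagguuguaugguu
miR-99a-5p of Mir99a: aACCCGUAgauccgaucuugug
miR-377-5p of Mir377: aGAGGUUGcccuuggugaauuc
miR-374b-5p of Mir374b: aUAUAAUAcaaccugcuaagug
miR-26a-5p of Mir26a-1: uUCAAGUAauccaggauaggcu
Mirlet7c-1 read 6.06, 5.12, 5.37 and 5.13 in naive arrays and 3.85 to 4.64 in vehicle arrays, a difference of -1.20 ± 0.17 (adjusted p = 0.000605, and 0.0564 with the block). The wild-type naive replicate 1 was the highest of these arrays. Mir99a, which lies next to Mirlet7c-1 (hairpins at chr16:77598936-77599000 and chr16:77599657-77599750, both on the plus strand), differed by -0.91 ± 0.22 (0.0283, and 0.0911). Mir377 differed by -0.59 ± 0.16 (0.0461) and Mir374b by -0.37 ± 0.10 (0.0493), while Mir26a-1 rose by 0.38 ± 0.09 (0.032). No microRNA gene passed with the block, and the median over the 300 was -0.01.

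Cell type markers held 1 call at most in each list, and 2.41% of all genes were called. Where present, that call made up 7.14% of meningeal and fibroblast, 7.69% of endothelial, 16.7% of CA1 and 14.3% of CA3 markers. None passed in limma among the measured markers of dentate granule cells (9), interneurons (15), astrocytes (13), oligodendrocytes (12), microglia (13), choroid plexus (15), ependymal cells (8) or neutrophils (7), with 4, 1, 2, 2, 2, 0, 3 and 1 of them at an unadjusted p under 0.05, against 14.4% of all genes. The list medians were 0.11 for dentate granule cells and 0.18 for oligodendrocytes, and all 8 ependymal markers had a positive difference, with a median of 0.14. Of 14 meningeal and fibroblast markers 1 rose, the matrix protein gene Mgp (0.66 ± 0.13, adjusted p = 0.00648, and 0.15 with the block). Of 13 endothelial markers 1 fell, the angiopoietin receptor gene Tek (-0.50 ± 0.11, adjusted p = 0.0141, and 0.0911 with the block), and the list's median was -0.27. Of 6 CA1 markers, with a median of 0.24, Man1a fell by 0.54 ± 0.11 (adjusted p = 0.0105, and 0.141 with the block), while Wfs1 and Fibcd1, which mark the same cells, ranged from 7.57 to 8.65 and from 7.66 to 8.91 in vehicle arrays and from 7.47 to 7.73 and from 7.59 to 7.69 in naive arrays. Of 7 CA3 markers 5 had a positive difference, and the list's median was 0.03. The 1 called among them, Nectin3, fell by 0.35 ± 0.07 (adjusted p = 0.0133, and 0.156 with the block). The mean of the choroid plexus markers, each relative to its mean over the 10 arrays, was 1.33 in cbp+/- vehicle replicate 3, -0.28 to -0.19 in the other vehicle arrays and -0.22 to 0.22 in the naive arrays, and Ttr, the transthyretin gene of the choroid plexus, ran from 7.08 to 10.71 in naive arrays. Without the 3 of the 28 arrays with raised choroid plexus markers, of which cbp+/- vehicle replicate 3 is the 1 in this comparison, the glucocorticoid-induced list went from 5 calls to 0 and from a median of 0.38 to 0.33.

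**Figure D4:**
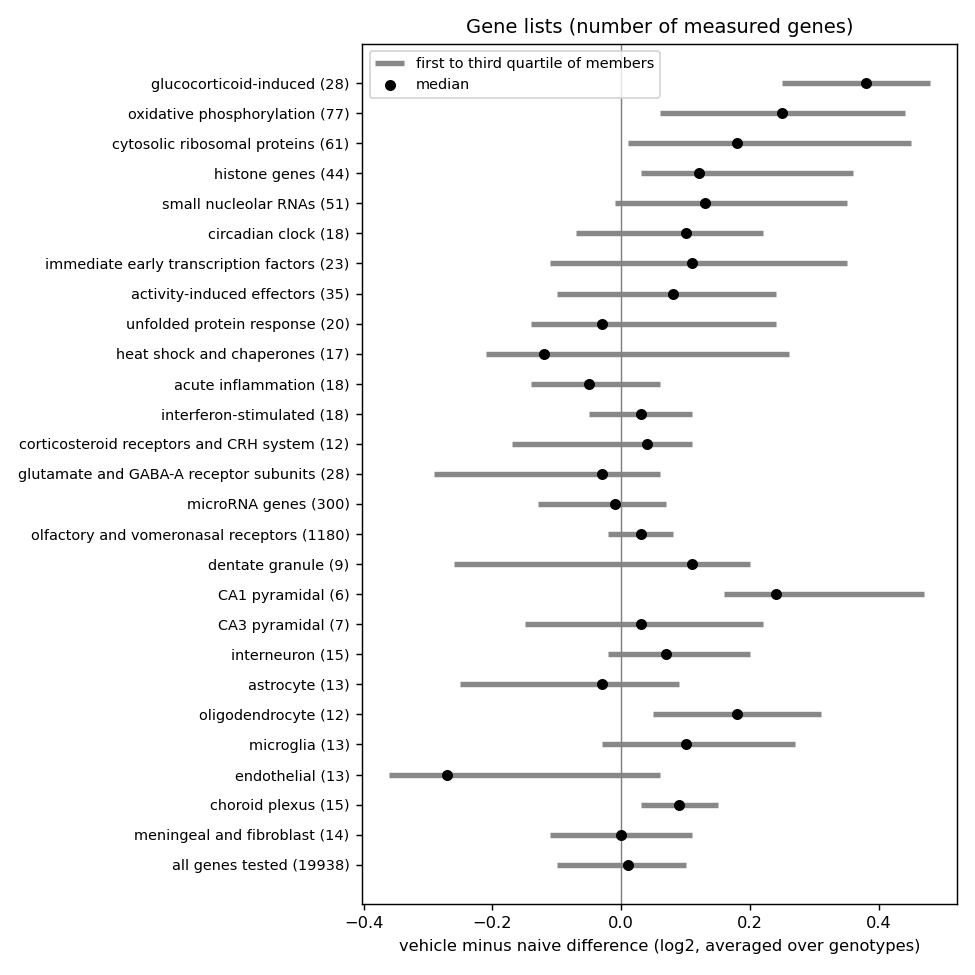
Median (points) and interquartile range (bars) of the vehicle minus naive differences, in log2 units averaged over genotypes, for gene lists and for all genes tested; numbers in brackets are measured genes. The glucocorticoid-induced list has a median of 0.38, oxidative phosphorylation 0.25 and endothelial markers -0.27, against 0.01 for all 19938 genes.

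Other stress lists held 1 call at most each. Over all genes 2.41% were called and 14.4% had an unadjusted p under 0.05 in limma. Of 20 unfolded protein response genes Herpud1, a factor of endoplasmic reticulum protein disposal, rose by 0.58 ± 0.08 (adjusted p = 0.000688, and 0.0534 with the block). That is 5% called, with 7 of the 20 at an unadjusted p under 0.05, and the list's median was -0.03. None of 17 heat shock genes and none of 18 interferon-stimulated genes passed in limma, with 5 and 3 at an unadjusted p under 0.05. Of 18 acute inflammation genes 1 fell (5.56% called), the adhesion molecule gene Vcam1 (-0.56 ± 0.14, adjusted p = 0.0405, and 0.0892 with the block). Of 13 sterol synthesis genes 1 fell (7.69% called), Hmgcs1 (-0.42 ± 0.11, 0.0455, and 0.193 with the block). As each of the 10 arrays was left out in turn, Vcam1 passed in 0 fits and Hmgcs1 in 2, with adjusted p from 0.0531 to 0.165 and from 0.026 to 0.267.

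Taken by genotype, 78 genes passed in wild type (0.391%), 25 higher (0.125%) and 53 lower (0.266%), and 76 of them were also called on average. With the block 52 passed in wild type (0.261%). In cbp+/- mice 0 genes passed in limma with no block, with 1107 at an unadjusted p under 0.05 (5.55%) and a lowest adjusted p of 0.0704, and 0 passed with the block, with 1708 unadjusted (8.57%). These counts do not show that the genotypes differ: the interaction called 0 genes, with 558 unadjusted (2.8%), and 0 with the block, with 3080 unadjusted (15.4%). Each genotype has 3 vehicle and 2 naive arrays, which limits its precision. All 480 genes called on average had the same sign in both genotypes, which the averaging favours. Cdkal1 differed by -0.84 in wild type and by -0.74 in cbp+/- mice, and Rmrp by 1.71 and 1.41. Mirlet7c-1 differed by -1.58 and -0.82. In cbp+/- mice the smallest p-values belonged to Cdkal1, Rex1bd and Tmem223, each at an adjusted p of 0.0704, with differences of 0.67 for Rex1bd and 0.58 for Tmem223, close to 0.71 and 0.56 in wild type. In wild type Psmd3, a proteasome subunit gene, rose by 0.80 with no block (adjusted p = 0.0464) and missed the threshold with it (0.068). The glucocorticoid-induced list had a median of 0.44 in wild type and 0.36 in cbp+/- mice.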

How the data were processed

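Pooled hippocampal RNA was hybridized to Affymetrix Mouse Gene 1.0 ST arrays. The log2 values are as the authors deposited them: the software was GeneSpring GX 11, per the labels' protocols, with RMA, per the submitters' processing notes, so a shift shared by most genes would not be seen. For the array annotation no genome build was found in the labels. Array medians ran from 5.46 to 5.63, and no 2 arrays were identical; the 10 cage control arrays correlated at 0.9815 to 0.9975. Of 35556 transcript clusters 21789 had 1 gene symbol, 1621 several and 12146 no entry in the platform's table; of the 999 genes with several clusters the one with the highest mean was kept, leaving 19938 genes. The remaining 13767 clusters are unnamed, and 312 of them passed (128 higher).

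Differences were fitted with limma 3.58.1 in R 4.3.3 over all 28 arrays with 1 mean for each label group, with two-sided tests; p-values were adjusted by Benjamini-Hochberg over all genes of a comparison, and 0.05 was the threshold. The number of arrays limits the precision. The labels call replicates independent biological samples. Replicate numbers were checked for pairing: residuals of same-numbered wild-type and cbp+/- arrays correlated at 0.12, 0.12, 0.65, 0.58 and 0.77, and those of other pairs at -0.54 to -0.04, so the number was used as a random block over the 10 arrays (consensus correlation 0.53; a fixed block for the interaction). With 2 naive arrays per genotype, a pair's residuals are mirror images, so the naive values carry little.

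Named genes are the 12 largest rises and 12 largest falls called with arrays apart, the 5 largest rises and falls in each genotype (or the 3 smallest p), the 5 smallest p of the interaction, 6 members at most from every list, and set stress and activity genes; not all are printed, and predicted genes and those named by an accession are only counted. The members and the lists were chosen with earlier results of these data known, and histone symbols were updated after the table was seen. Lists are described by counts and medians, with no set test. Fits were tested on simulated data. Sequences are from RefSeq tables of GRCm38.p6. Alternatives were other blocks, samples, weights, variance models, normalizations and filters; the recount of list members under them was added after seeing the data.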

Additional observations from a re-analysis of the deposited data

Results flagged for a closer look

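Of 266 groups of arrays examined, over genes the text names and the list means, 12 held 1 array far from the rest, and chance alone gives about 1 in 20. Of these 4 concern genes in naive arrays. Rpph1 in cbp+/- naive replicate 1 read 10.89, against 10.53 to 10.58 in the others. Snora16a in the same array read 6.82, against 6.64 to 6.67. Tmem223, a mitochondrial membrane protein gene, read 8.12 in wild-type naive replicate 2, against 8.37 to 8.41. Npy1r read 7.52 in cbp+/- naive replicate 2, against 7.76 to 7.79.

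The other 8 concern list means, each gene taken relative to its mean over the 10 arrays. In cbp+/- vehicle replicate 5 the mean was -0.094 for corticosteroid receptors and the CRH system (-0.007 to 0.033 in the other vehicle arrays), 0.229 for interferon-stimulated genes (-0.075 to -0.018) and -0.028 for olfactory and vomeronasal receptors (0.014 to 0.024). In cbp+/- vehicle replicate 3 it was 1.334 for choroid plexus markers (-0.282 to -0.191). In wild-type vehicle replicate 5 it was 0.102 for striatal markers (-0.072 to -0.017). Among naive arrays it was -0.005 for hypoxia and glycolysis in cbp+/- replicate 1 (-0.105 to -0.09), -0.058 for CA1 pyramidal markers in wild-type replicate 2 (-0.143 to -0.133) and -0.116 for meningeal and fibroblast markers in wild-type replicate 1 (0.014 to 0.036).

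The 5 genes with the smallest interaction p moved in opposite directions in all vehicle arrays of the genotypes, as 1353 of 19938 genes did (6.79%), and none passed the interaction test (limma, adjusted p = 1). Serpinh1, a collagen chaperone gene, differed by 0.29 in wild type and -0.36 in cbp+/- mice, an interaction of -0.65. For the protease gene Klk6 the values were 0.28, -0.28 and -0.55. For the kinase gene Rps6ka6 they were -0.45, 0.22 and 0.67. For the ephrin receptor gene Epha1 they were 0.33, -0.27 and -0.60, and for the forkhead gene Foxi2 0.48, -0.21 and -0.68.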

How the results depend on the processing

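The averaged comparison called 480 genes. It called 690 on the 10 cage control arrays with no block, 801 with genotype as an additive factor on 10 arrays and 2805 with array weights. The count was 301 with an intensity trend and 236 without the arrays with raised choroid plexus markers. It was 30 with the replicate block on 10 arrays and 2 with array sets as a block. Leaving out 1 array gave 112 to 451: 112 and 155 without wild-type naive replicates 1 and 2, 119 and 150 without cbp+/- naive replicates 1 and 2, 280 without wild-type vehicle replicate 3 and 290 without cbp+/- vehicle replicate 3. Leaving out a number in both genotypes gave 16 without number 1, 40 without number 2 and 160 without number 3. Wild type called 78 genes, and 30 on 10 arrays, 1 with array sets as a block, 2452 with array weights, 16 with a trend, 46 without the choroid-raised arrays, and 0 to 81 with 1 array left out. In cbp+/- mice 0 became 208 with array weights and 6 with repeated quantile normalization. The interaction called 0 under every alternative run. Of 64 called genes that were followed, 29 kept their call as each of the 10 arrays was left out; Rmrp, Rpph1, Snord104, Rpsa, Uqcrq, Arntl, Npy1r and Cdkal1 did, while Ciart did in 8 of 10 and Ddit4 in 4. Uncalled differences changed sign without replicates 3 for Ep300 (-0.0002406) and Dusp1 (-0.1442), and without replicates 4 for Crebbp (-0.008988). The cause of these changes was not tested.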
